A study of Homo sapiens with 24 samples.

Results

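The comparison described here asked how far the difference between Aldefluor+ and Aldefluor- cells depended on the breast cancer line, in cells that had received only the vehicle, DMSO. It used the 12 DMSO arrays of the 24 in the series, chosen by their treatment label. They form 4 groups of 3: SUM159 Aldefluor+, SUM159 Aldefluor-, T47D Aldefluor+ and T47D Aldefluor-. The other 12 arrays came from the same lines and fractions after 3 days with the small molecule ID8 at 5 µM. They enter below as a second set of values. SUM159 is an established triple-negative breast cancer line, and T47D is an established luminal line that expresses the oestrogen receptor. Cells received DMSO for 3 days, were harvested from pooled flasks, stained and sorted by flow cytometry. The gate for Aldefluor+ events was set on a tube with DEAB, which inhibits the reaction. SUM159 was grown in a medium with insulin and hydrocortisone that the T47D medium did not contain per the labels, and the lines were run in different experiments, numbered 2, 3 and 4 for SUM159 and 5, 6 and 7 for T47D. Line, medium and experiment therefore cannot be told apart. Each fraction had 1 array per experiment, and each experiment held 1 line. The p-values rest on how differences between groups varied from experiment to experiment, pooled over both lines and both treatments.

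Aldehyde dehydrogenases oxidise aldehydes to carboxylic acids, and members of the ALDH1A group make retinoic acid from retinaldehyde. The Aldefluor reagent is an aldehyde that these enzymes turn into a charged fluorescent product, which stays in the cell. Cells with high activity are widely used as a population enriched in breast cancer stem cells. Several enzymes of the family can turn over the reagent.

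Values are log2 signals that the authors had adjusted for batch. After that adjustment, levels were centred by experiment, so a level in SUM159 cannot be set against a level in T47D. The quantity below is the Aldefluor+ minus Aldefluor- value of each experiment, compared between the lines. The line difference is the SUM159 value minus the T47D value, positive where Aldefluor+ cells were higher by more, or lower by less, in SUM159. An adjustment of this kind can also change the size of differences within a line, and not equally in both lines, to an extent unknown here. A line difference would carry any such change. The levels of the lines had nearly been made equal: their difference had an SD of 0.118 over genes and was at most 1.18 (log2, all arrays). In the small differences that remained, 11 of 12 markers typical of SUM159 were higher in the SUM159 DMSO arrays. Of 15 markers typical of T47D, 14 were higher in the T47D DMSO arrays. These counts do not measure how far expression differs between the lines. The line markers VIM, CDH1 and ESR1 had line differences of -0.01 ± 0.146, 0.03 ± 0.122 and -0.03 ± 0.278 (log2, SE). EPCAM, a marker of T47D, had -0.33 ± 0.236. Not all line markers lay near 0: among those of SUM159, LOX had 0.77 ± 0.261 and FN1 0.32 ± 0.129. No line marker was called. In experiment 4 the SUM159 Aldefluor+ array was narrow: its values had an interquartile range of 2.88, beside 2.97 to 3.12 in the other 23 arrays (log2). Arrays have no read depth, and their number limits the precision: the median SE of a line difference was 0.262 over 22395 genes.

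With DMSO, 15 genes differed between the lines in their Aldefluor difference (limma with the experiment as a block, Benjamini-Hochberg adjusted p under 0.05), which is 0.0670% of the genes tested. Aldefluor+ cells were relatively higher in SUM159 for 6 of them (0.0268% of genes): ALDH1A1, ANKRD1, THBS1, SNX10, ABCA12 and SDC2. They were relatively higher in T47D for 9 (0.0402%): SLITRK6, SLC6A14, COX7B2, LRRC31, NTN4, FGG, SAT1, ANXA1 and STK40. The SUM159 difference alone was called for 2 of the 15 (ALDH1A1 and ANKRD1), the T47D difference alone for 10, and neither for LRRC31, STK40 and SDC2. For 10 of the 15 the mean differences in the lines had opposite signs, and the share of all genes with opposite mean signs was not counted. In all 15 the 3 SUM159 differences did not overlap the 3 T47D differences, an arrangement found with SUM159 higher in 5.65% of all genes and with SUM159 lower in 6.36%. In 5 of the 15 (THBS1, SNX10, LRRC31, STK40 and SDC2) all SUM159 experiments had 1 sign and all T47D experiments the other, against 3.59% of all genes. The 15 genes were chosen by these same values, which favours such arrangements, so these counts describe the genes and are no separate support. For 6 of the 15 (SLITRK6, SLC6A14, COX7B2, LRRC31, FGG and ANKRD1) at least 1 DMSO group had a mean below 2 on the log2 scale. No fold is given for them, because probe set background weighs on a fold at low signal. Levels were centred by experiment, so a group mean does not show whether a line was at background. The folds given for other genes carry this limit too. At an unadjusted p under 0.05, 1734 genes differed (7.74%), 804 in the SUM159 direction (3.59%) and 930 in the T47D direction (4.15%).

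The number of calls rests on the spread pooled over all 24 arrays. A fit to the 12 DMSO arrays alone, with 4 residual degrees of freedom, called 0 genes. In that fit 1647 genes had an unadjusted p under 0.05, and the 15 genes had adjusted p-values of 0.0735 to 0.408. When whole experiments were left out, the calls numbered 7 without experiment 2 (5 of them among the 15), 10 without experiment 3 (8 of the 15), 8 without experiment 4 (8 of the 15), 8 without experiment 5 (7 of the 15), 6 without experiment 6 (6 of the 15) and 8 without experiment 7 (7 of the 15). Without the narrow SUM159 array of experiment 4, 9 genes were called, all among the 15. ALDH1A1, THBS1 and SLC6A14 were called in all 7 of these leave-outs, and no gene of the 15 changed sign in any setting.

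**Figure D1:**
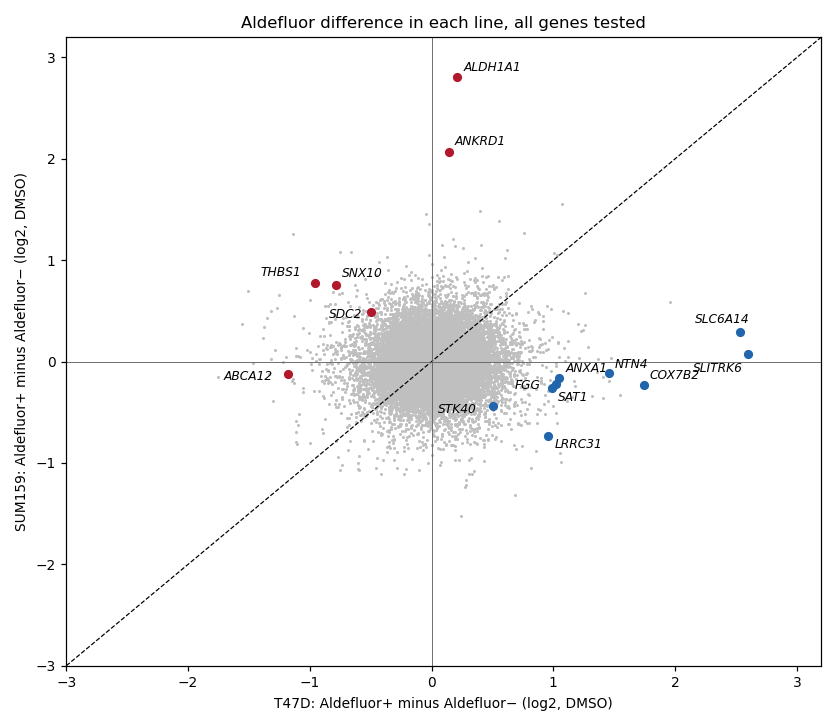
Aldefluor+ minus Aldefluor- difference in T47D (x axis) and in SUM159 (y axis), both log2 with DMSO, for 22395 genes (grey) and the 15 called genes (red, relatively higher in SUM159; blue, relatively higher in T47D); the dashed line marks equal differences. ALDH1A1 and ANKRD1 stand high on the SUM159 axis near 0 in T47D, and most blue genes lie to the right near 0 in SUM159.

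ALDH1A1, the cytosolic retinaldehyde dehydrogenase, had the smallest adjusted p of the 15. Its signal was 5.03, 5.17 and 4.84 in SUM159 Aldefluor+ cells and 2.45, 1.98 and 2.19 in SUM159 Aldefluor- cells (log2, experiments 2, 3 and 4). In T47D it was 3.21, 3.27 and 3.36 in Aldefluor+ cells and 3.18, 3.28 and 2.75 in Aldefluor- cells (log2, experiments 5, 6 and 7). The SUM159 fractions were thus far apart in every experiment, while the T47D fractions overlapped. The SUM159 difference was 2.80 ± 0.171 and the T47D difference 0.21 ± 0.171 (log2, SE). The latter has a 95% confidence interval of -0.15 to 0.57 and an adjusted p of 0.802 by limma. The line difference was 2.59 ± 0.242, a 6.04-fold gap (adjusted p = 0.000241), and it was 2.40 to 2.79 when single experiments were left out. In sorted bulk samples, fewer cells with a transcript and less of it per cell cannot be told apart.

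None of the other measured aldehyde dehydrogenases passed the test. Of 17 members measured, 8 had a line difference above 0 and 9 below, with a median of -0.04, beside -0.01 over all genes. ALDH2, the mitochondrial acetaldehyde dehydrogenase, had a line difference of 0.89 ± 0.377 (adjusted p = 0.581), from 0.22 in SUM159 and -0.67 in T47D. ALDH3A2, the microsomal fatty aldehyde dehydrogenase, had 0.55 ± 0.225 (adjusted p = 0.565). The retinaldehyde dehydrogenases ALDH1A2 and ALDH1A3 had line differences of -0.04 ± 0.197 and -0.08 ± 0.288. ALDH3A1 had -0.36 ± 0.249. In T47D the differences were 0.09 for ALDH1A2, 0.07 for ALDH1A3 and 0.19 for ALDH3A1, with 95% intervals of -0.20 to 0.39, -0.36 to 0.50 and -0.19 to 0.56. The highest T47D difference in the family was 0.45, for ALDH3B1, whose line difference was -0.56 ± 0.408 (adjusted p = 0.841). No measured member of the family was called in the T47D fractions. For 5 of the 17 members the mean signal was below 2, a low level where signal over background is small.

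The promoters of 4 genes on which the comparison turns are shown because ALDH1A1 and ANKRD1 carried the SUM159 side, SLC6A14 the T47D side, and THBS1 moved in opposite directions in the lines. Each runs from 250 bases before to 50 bases after the gene's start, 5′ to 3′ on the gene's strand, from RefSeq on GRCh38.p14. The positions are chr9:72953004-72953303 on the minus strand for ALDH1A1, chr10:90921038-90921337 on the minus strand for ANKRD1, chr15:39580829-39581128 on the plus strand for THBS1 and chrX:116436356-116436655 on the plus strand for SLC6A14. Capitals mark matches on either strand to GGAATG, the core of the motif bound by TEAD factors, to TGANTCA, the motif of AP-1, or to CCAAT, which reads ATTGG on the other strand.
ALDH1A1: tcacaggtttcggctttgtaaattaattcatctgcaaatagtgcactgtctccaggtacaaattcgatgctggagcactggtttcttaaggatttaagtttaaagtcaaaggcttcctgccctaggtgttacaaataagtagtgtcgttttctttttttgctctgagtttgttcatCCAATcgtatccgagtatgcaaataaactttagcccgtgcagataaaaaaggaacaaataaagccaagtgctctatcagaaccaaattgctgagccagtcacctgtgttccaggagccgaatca
ANKRD1: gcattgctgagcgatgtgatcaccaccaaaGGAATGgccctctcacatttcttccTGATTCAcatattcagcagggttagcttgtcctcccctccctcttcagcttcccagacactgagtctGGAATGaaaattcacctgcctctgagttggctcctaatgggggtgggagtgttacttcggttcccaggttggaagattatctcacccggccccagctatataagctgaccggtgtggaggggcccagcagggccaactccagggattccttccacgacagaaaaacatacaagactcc
THBS1: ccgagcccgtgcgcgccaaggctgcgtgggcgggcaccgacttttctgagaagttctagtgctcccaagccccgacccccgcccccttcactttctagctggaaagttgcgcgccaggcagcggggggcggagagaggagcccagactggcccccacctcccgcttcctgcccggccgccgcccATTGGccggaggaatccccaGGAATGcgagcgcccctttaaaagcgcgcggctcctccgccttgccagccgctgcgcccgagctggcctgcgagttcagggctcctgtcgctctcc
SLC6A14: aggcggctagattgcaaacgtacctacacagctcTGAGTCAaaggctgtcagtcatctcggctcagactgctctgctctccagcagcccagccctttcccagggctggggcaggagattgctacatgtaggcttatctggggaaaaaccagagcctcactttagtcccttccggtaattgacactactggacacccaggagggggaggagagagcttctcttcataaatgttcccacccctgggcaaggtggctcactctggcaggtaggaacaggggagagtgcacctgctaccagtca
ALDH1A1 had 1 CCAAT match, its first base at -74 from the start. ANKRD1 had GGAATG at -220 and -128 and the AP-1 letters at -195. THBS1 had ATTGG at -66 and GGAATG at -46, and SLC6A14 had the AP-1 letters at -216. Over 35116 promoters of 300 bases, 14% held GGAATG, 7.71% TGANTCA and 34.6% CCAAT, so a match alone does not show a bound site. Binding was not tested, and the matches are given as a description. No 2 matches in these promoters overlap. Of the 15 called genes, 14 had a promoter in the table, and in the first promoter listed for each, 3 held GGAATG, 5 TGANTCA and 8 CCAAT.

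ANKRD1, an ankyrin-repeat cofactor and textbook target of the YAP and TAZ coactivators, was the other gene called in SUM159. Its signal was 3.63, 3.83 and 3.49 in SUM159 Aldefluor+ cells and 1.58, 1.61 and 1.53 in Aldefluor- cells (log2). In T47D it was 3.42, 3.00 and 3.46 against 3.14, 3.19 and 3.11. The SUM159 fractions did not overlap, and the T47D fractions did. The line difference was 1.93 ± 0.264 (adjusted p = 0.00558), from 2.07 ± 0.187 in SUM159 and 0.14 ± 0.187 in T47D. It was 1.86 with an adjusted p of 0.0908 without experiment 3, 1.94 with 0.0592 without experiment 2 and 2.03 with 0.0533 without experiment 7.

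THBS1, the matrix glycoprotein thrombospondin 1, moved in opposite directions in the lines. It read 8.58, 8.34 and 8.27 in SUM159 Aldefluor+ cells and 7.46, 7.74 and 7.67 in Aldefluor- cells (log2). In T47D it read 7.68, 8.11 and 7.99 in Aldefluor+ cells and 8.93, 8.81 and 8.90 in Aldefluor- cells. Neither line's fractions overlapped, and the higher fraction was Aldefluor+ in SUM159 and Aldefluor- in T47D. This made a line difference of 1.73 ± 0.206 (3.31-fold, adjusted p = 0.00214). The T47D difference of -0.95 ± 0.146 was called (adjusted p = 0.00889), and the SUM159 difference of 0.77 ± 0.146 was not (adjusted p = 0.117).

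SNX10, a sorting nexin of endosomes, had the same arrangement. It read 2.75, 2.97 and 3.03 in SUM159 Aldefluor+ cells against 2.13, 2.29 and 2.05 in Aldefluor- cells (log2). In T47D the Aldefluor+ values of 2.30, 2.36 and 2.35 lay below the Aldefluor- values of 3.06, 3.21 and 3.09. Fractions were separate in both lines, in opposite order. The line difference was 1.54 ± 0.191 (2.91-fold, adjusted p = 0.00214, and 1.51 with 0.0591 without experiment 6). SDC2, the heparan sulphate proteoglycan syndecan 2, repeated the order at a smaller size. It read 5.77, 6.10 and 6.06 against 5.65, 5.44 and 5.38 in SUM159, and 5.52, 5.54 and 5.42 against 5.89, 6.00 and 6.08 in T47D. Its line difference of 0.98 ± 0.169 (adjusted p = 0.0425) came from 0.49 in SUM159 and -0.49 in T47D, neither of which was called. Of its 7 leave-outs, only that of experiment 2 kept the SDC2 call (adjusted p = 0.0469), and the others gave 0.118 to 0.308. With scaled arrays its adjusted p was 0.103, and with every probe set 0.0942.

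ABCA12, a lipid transporter known from skin keratinocytes, differed through T47D. There it read 3.85, 3.67 and 3.77 in Aldefluor+ cells against 4.94, 4.89 and 5.00 in Aldefluor- cells, a difference of -1.18 ± 0.128 (log2, adjusted p = 0.000423). In SUM159 the values of 3.34, 3.09 and 3.42 overlapped 3.62, 3.31 and 3.28. The line difference was 1.06 ± 0.181 (adjusted p = 0.0422), and it was called in none of the 7 leave-outs, where the adjusted p was 0.0702 to 0.302. The ABCA12 call also ended with arrays scaled to 1 interquartile range (adjusted p = 0.0943), with every probe set in the fit (0.0928), with trend and robust eBayes (0.0552) and with array weights (0.0665).

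**Figure D2:**
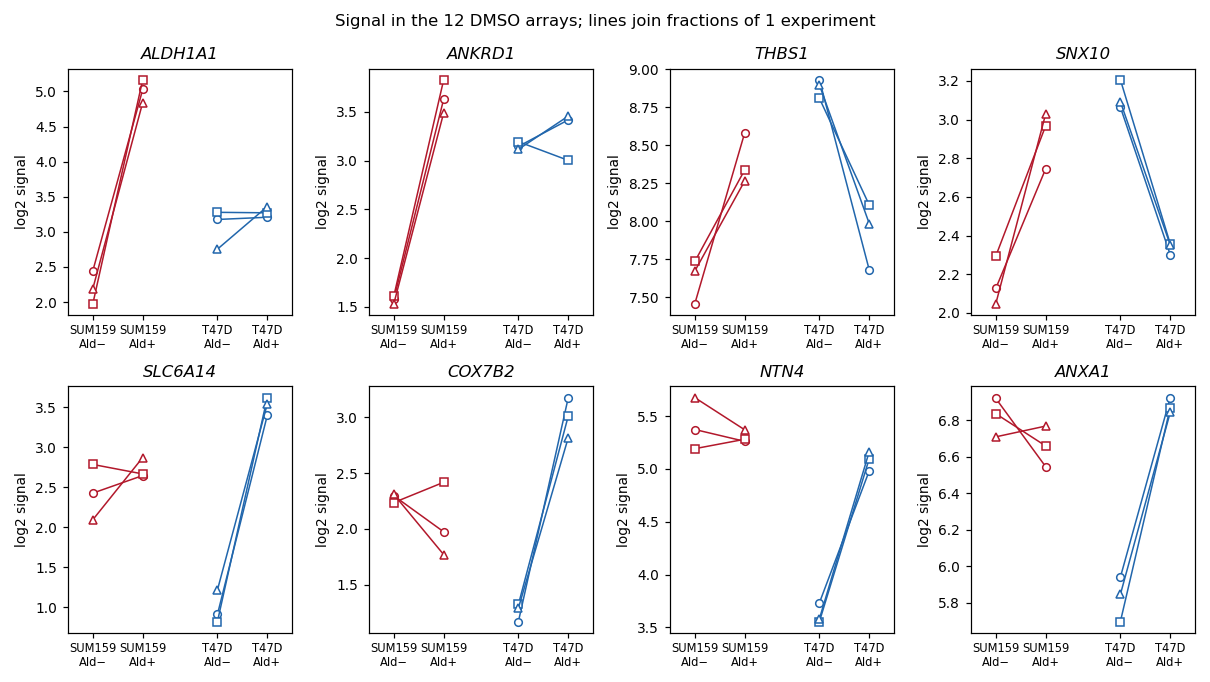
Log2 signal of 8 of the called genes in the 12 DMSO arrays (y axis), by line and fraction (x axis; Ald, Aldefluor; red, SUM159; blue, T47D); each line joins the Aldefluor- and Aldefluor+ arrays of 1 experiment (circles, 2 or 5; squares, 3 or 6; triangles, 4 or 7). ALDH1A1 and ANKRD1 rise in the red lines with blue lines nearer level, THBS1 and SNX10 rise in red and fall in blue, and SLC6A14, COX7B2, NTN4 and ANXA1 rise in blue with red lines of mixed direction.

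On the T47D side, the clearest gene was SLC6A14, a sodium- and chloride-dependent importer of neutral and cationic amino acids. It read 3.40, 3.62 and 3.54 in T47D Aldefluor+ cells and 0.91, 0.82 and 1.22 in Aldefluor- cells (log2). In SUM159 it read 2.65, 2.67 and 2.87 against 2.43, 2.79 and 2.10. The T47D fractions were separate by a wide margin, and the SUM159 fractions overlapped. The T47D difference was 2.54 ± 0.192 and the SUM159 difference 0.29 ± 0.192, with a 95% interval of -0.11 to 0.70 for the latter. Between the lines the difference was -2.24 ± 0.271 (adjusted p = 0.00214).

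SLITRK6, a neuronal transmembrane protein with leucine-rich repeats, had a T47D difference of like size. Its T47D values were 4.13, 3.98 and 3.90 in Aldefluor+ cells and 1.72, 1.00 and 1.49 in Aldefluor- cells (log2). Its SUM159 values were 1.76, 2.24 and 2.13 against 1.96, 1.98 and 1.96, which overlapped. The line difference of -2.52 ± 0.441 had a larger error than that of SLC6A14 (adjusted p = 0.0479). Of the 7 leave-outs, the SLITRK6 call was kept only without experiment 7 (adjusted p = 0.0244), and the others gave 0.105 to 0.286. With every probe set its adjusted p was 0.118, and with array weights 0.0738.

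COX7B2, an isoform of a cytochrome c oxidase subunit known from testis, read 3.18, 3.01 and 2.82 in T47D Aldefluor+ cells and 1.17, 1.32 and 1.29 in Aldefluor- cells (log2). In SUM159 it read 1.97, 2.42 and 1.77 against 2.30, 2.24 and 2.31. The T47D fractions were separate, and the SUM159 fractions overlapped. COX7B2 had a line difference of -1.97 ± 0.244 (adjusted p = 0.00214), and the adjusted p was 0.0592 without experiment 2 and 0.0575 without experiment 5. None of the other 12 measured respiratory chain genes was called.

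NTN4, the secreted basement membrane protein netrin 4, read 4.98, 5.10 and 5.16 in T47D Aldefluor+ cells and 3.73, 3.56 and 3.58 in Aldefluor- cells (log2). Its SUM159 values were 5.26, 5.28 and 5.37 against 5.37, 5.19 and 5.67. Only the T47D fractions were separate. NTN4 had a line difference of -1.57 ± 0.225 (2.96-fold, adjusted p = 0.00918). It lost its call without experiment 2, 4, 6 or 7 (adjusted p = 0.0625 to 0.159).

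ANXA1, the phospholipid-binding protein annexin A1, read 6.92, 6.87 and 6.84 in T47D Aldefluor+ cells and 5.94, 5.70 and 5.85 in Aldefluor- cells (log2). Its SUM159 values were 6.55, 6.66 and 6.77 against 6.92, 6.84 and 6.71, again with overlap. ANXA1 had a line difference of -1.21 ± 0.152 (2.32-fold, adjusted p = 0.00214, with 0.0578 without experiment 2 and 0.0591 without experiment 6). SAT1, the acetyltransferase that starts the breakdown of polyamines, had a line difference of -1.25 ± 0.199 (adjusted p = 0.0233). It read 7.26, 7.27 and 7.51 in T47D Aldefluor+ cells against 6.27, 6.41 and 6.37, and 6.65, 6.86 and 6.46 in SUM159 Aldefluor+ cells against 6.80, 6.79 and 7.15. SAT1 was separate in T47D and overlapped in SUM159, and of its 7 leave-outs only that of experiment 3 kept the call (adjusted p = 0.0472, the others 0.0743 to 0.227). With scaled arrays the adjusted p of SAT1 was 0.0523, and with every probe set 0.0636.

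LRRC31, a protein with leucine-rich repeats, and STK40, a protein of the serine/threonine kinase family, moved oppositely in the lines. LRRC31 read 2.23, 2.07 and 2.03 in SUM159 Aldefluor+ cells against 2.68, 2.87 and 2.99, and 2.45, 2.54 and 3.04 in T47D Aldefluor+ cells against 1.63, 2.02 and 1.50 (log2). STK40 read 2.90, 2.97 and 2.86 against 3.39, 3.25 and 3.42 in SUM159, and 3.29, 3.26 and 3.34 against 2.75, 2.97 and 2.66 in T47D. For both genes the fractions were separate in each line, with Aldefluor+ lower in SUM159 and higher in T47D. The line differences were -1.69 ± 0.263 for LRRC31 (adjusted p = 0.019) and -0.95 ± 0.157 for STK40 (adjusted p = 0.0334). LRRC31 kept its call in 1 of the 7 leave-outs (0.0318 without experiment 6, the others 0.0592 to 0.207), and STK40 in none (0.0591 to 0.286). With every probe set in the fit both calls ended (0.0536 for LRRC31 and 0.0807 for STK40), and that of STK40 also with scaled arrays (0.065) and with trend and robust eBayes (0.0988).

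FGG, the gamma chain of fibrinogen, lay near the bottom of the signal range. It read 1.74, 1.73 and 1.99 in T47D Aldefluor+ cells and 0.89, 0.80 and 0.70 in Aldefluor- cells (log2), and 0.74, 0.56 and 0.92 against 0.94, 1.22 and 0.74 in SUM159. The T47D fractions were separate, but every value was below 2, so the size of the difference is not a ratio of transcripts. FGG had a line difference of -1.25 ± 0.19 (adjusted p = 0.0161). Without experiment 2, 3, 5, 6 or 7 the adjusted p of FGG was 0.096 to 0.213.

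The next genes by p-value did not pass and are given as values. Toward SUM159 they were ISOC1 (1.16 ± 0.206, adjusted p = 0.0566), CFAP91, a protein of cilia and flagella (1.23 ± 0.245, adjusted p = 0.114), ALCAM, a cell adhesion molecule (0.87 ± 0.176, adjusted p = 0.114), and GFRA1, the coreceptor of glial cell line-derived neurotrophic factor (1.72 ± 0.348, adjusted p = 0.114). GFRA1 read 2.68, 2.91 and 2.69 in T47D Aldefluor+ cells against 4.23, 4.03 and 4.14 in Aldefluor- cells (log2). In SUM159 it read 3.31, 3.54 and 3.16 against 3.61, 2.48 and 2.89. The T47D fractions were separate and the SUM159 fractions overlapped. Toward T47D the next gene was L3MBTL3, a reader of methylated lysine in chromatin proteins (-1.43 ± 0.26, adjusted p = 0.0673).

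A difference called in 1 line is not thereby a difference between lines. In SUM159, 5 genes differed between fractions, all higher in Aldefluor+ cells (0.0223% of genes), and the line difference was called for 2. The other 3 were NPR3, the clearance receptor of natriuretic peptides, KIAA0040, and MYL9, a myosin regulatory light chain. All 5 had the same sign in T47D, but the share of all genes with the same sign in both lines was not counted. NPR3 read 5.74, 5.91 and 5.13 against 4.19, 3.88 and 4.05 in SUM159, and 4.85, 4.94 and 5.31 against 4.34, 3.84 and 3.71 in T47D (log2). Its fractions were separate in both lines with Aldefluor+ higher, and its line difference of 0.48 ± 0.322 (adjusted p = 0.807) has a 95% interval of -0.20 to 1.17. MYL9 had a line difference of 0.74 ± 0.245 (95% interval 0.22 to 1.26, adjusted p = 0.447). KIAA0040 had 1.06 ± 0.256 (adjusted p = 0.236), with 1.15 in SUM159 and 0.09 in T47D. By limma, 4 of the 5 had an unadjusted p under 0.05 for the line difference, beside 7.74% of all genes. The 5 were chosen by a difference that enters the line difference, which favours a small p.

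In T47D, 34 genes differed between fractions (0.152%), 20 higher (0.0893%) and 14 lower (0.0625%) in Aldefluor+ cells, and the line difference was called for 10 of them. All 34 had an unadjusted p under 0.05 for the line difference by limma, beside 7.74% of all genes. They too were chosen by a difference that enters it, so those not called are not thereby shared by the lines. In SUM159, 17 of the 34 had the same sign, again with no count over all genes beside it. Left without experiment 5, 6 or 7, T47D had 12, 7 or 5 calls, and without experiment 4 it had 23. The SUM159 count fell to 2 without experiment 3, 5, 6 or 7 and to 3 without experiment 2 or 4. Beside the genes above, TGFB2, a ligand of the transforming growth factor beta family, was higher in T47D Aldefluor+ cells by 1.46 ± 0.244 (log2, adjusted p = 0.018). It read 4.95, 5.26 and 5.12 there against 4.27, 3.16 and 3.52, and 4.32, 4.16 and 4.24 against 4.55, 4.52 and 4.24 in SUM159. The fractions were separate in T47D and overlapped in SUM159. Its line difference of -1.66 ± 0.345 did not pass (adjusted p = 0.128), and without experiment 5 it was -2.05 with an adjusted p of 0.0121. The noncoding RNA LINC01016 was higher by 1.96 in T47D and 0.58 in SUM159, with a line difference of -1.37 ± 0.35 (adjusted p = 0.265). GLYATL3, of the glycine acyltransferase family, had 1.48 in T47D, 0.04 in SUM159 and a line difference of -1.44 ± 0.295 (adjusted p = 0.12). Over all 22395 genes, the fraction differences of the lines had a Pearson correlation of 0.0391, given as a description across genes, which are not independent.

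The pathway lists were read by their counts. Of 22395 genes, 48.9% had a line difference above 0, and 3.59% passed an unadjusted p under 0.05 in the SUM159 direction and 4.15% in the T47D direction. Among 30 genes of G1/S transition and DNA replication, 24 were above 0 with a median of 0.19, and none was called. The replication factors GINS2, GINS4 and MCM2 had 0.70 ± 0.176, 0.62 ± 0.206 and 0.64 ± 0.273 (adjusted p = 0.256, 0.448 and 0.598). Their list had a median of 0.19 in SUM159 and -0.02 in T47D. The 29 mitosis genes had a median of -0.01, with 13 above 0. Cholesterol synthesis had 12 of 17 above 0 and a median of 0.19, with HSD17B7 at 1.08 ± 0.416, NSDHL at 0.50 ± 0.217 and HMGCS1, the synthase at its entry, at 0.42 ± 0.209. None of the cholesterol genes passed. In fatty acid metabolism 9 of 15 were above 0, and FASN, the fatty acid synthase, had 0.61 ± 0.196 (adjusted p = 0.441).

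Wnt pathway genes lay mostly on the T47D side, with 15 of 18 below 0 and a median of -0.12. DKK1, a secreted Wnt inhibitor, had -1.25 ± 0.231 (adjusted p = 0.0733), from -0.29 in SUM159 and 0.96 in T47D. LEF1, a transcription factor of the pathway, had -0.81 ± 0.218 (adjusted p = 0.305), and the matricellular protein CCN4 had -0.75 ± 0.402. For 12 of the 18 the mean signal was below 2. Notch genes had 12 of 19 below 0 and a median of -0.26, and the Notch targets HEY2 and HEY1 stood on opposite sides, at 1.10 ± 0.328 and -0.91 ± 0.322 (adjusted p = 0.377 and 0.476). Their signal was low, with means of 2.04 for HEY2 and 1.34 for HEY1, and 7 of the 19 Notch genes had a mean below 2. Of 13 ligands and receptors of the EGFR family, 9 were below 0, with the ligands EPGN at -0.82 ± 0.249, HBEGF at -0.66 ± 0.239 and EREG at 0.67 ± 0.258. The mean signal of HBEGF was 1.85, and 6 of the 13 had a mean below 2. Of the YAP and TAZ targets, 10 of 22 were above 0 with a median of -0.02, and ANKRD1 was the only member called. TGFB2 and CRIM1 were below 0, at -1.66 and -0.59. Amino acid transporters had 11 of 18 above 0. Besides SLC6A14, SLC7A5, the large neutral amino acid exchanger, had -0.79 ± 0.235 and SLC43A2 had 0.80 ± 0.306 (adjusted p = 0.379 and 0.522).

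Genes used as markers of breast cancer stem cells had 5 of 15 above 0. ABCG2, the drug efflux pump of side population cells, had -1.27 ± 0.247 (adjusted p = 0.103), from -0.84 in SUM159 and 0.43 in T47D. SOX2, a pluripotency factor, had 0.90 ± 0.31 and PROCR, the protein C receptor, -0.61 ± 0.262. In the luminal list 11 of 19 were above 0 with a median of 0.01, and MYB, an oestrogen-responsive transcription factor, had 1.07 ± 0.241 (adjusted p = 0.185), from 0.17 in SUM159 and -0.89 in T47D. Of 20 mesenchymal genes, 9 were above 0, with the collagen COL6A3 at -1.03 ± 0.282, the crosslinking enzyme LOX at 0.77 ± 0.261 and fibronectin, FN1, at 0.32 ± 0.129. None of the genes in the stem cell, luminal or mesenchymal lists was called. The stem cell list did not hold ALDH1A1, which was called and is counted with the aldehyde dehydrogenases.

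Immediate early genes, which cells switch on within minutes of a stimulus, had 5 of 17 above 0 and a median of -0.19. FOSB had -0.95 ± 0.414, from -0.04 in SUM159 and 0.91 in T47D, EGR3 had -0.58 ± 0.26 and KLF4 had -0.40 ± 0.224. In the transforming growth factor beta list 11 of 19 were above 0, and beside TGFB2 the ligand TGFB1 had -0.55 ± 0.195 and the receptor TGFBR1 -0.38 ± 0.188. Basal genes had 6 of 10 above 0, with the keratin KRT5 at 0.55 ± 0.203, the integrin ITGB4 at 0.89 ± 0.37 and EGFR at -0.37 ± 0.157. Of 16 keratin and desmosome genes, 7 were above 0, with desmoplakin, DSP, at 0.44 ± 0.155, PKP2 at -0.41 ± 0.165 and KRT7 at -0.74 ± 0.343. No member of these lists passed the test, and their smallest adjusted p, after that of TGFB2, was 0.474. The mean signal was low for EGR3 (1.40) and KRT5 (1.11).

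**Figure D3:**
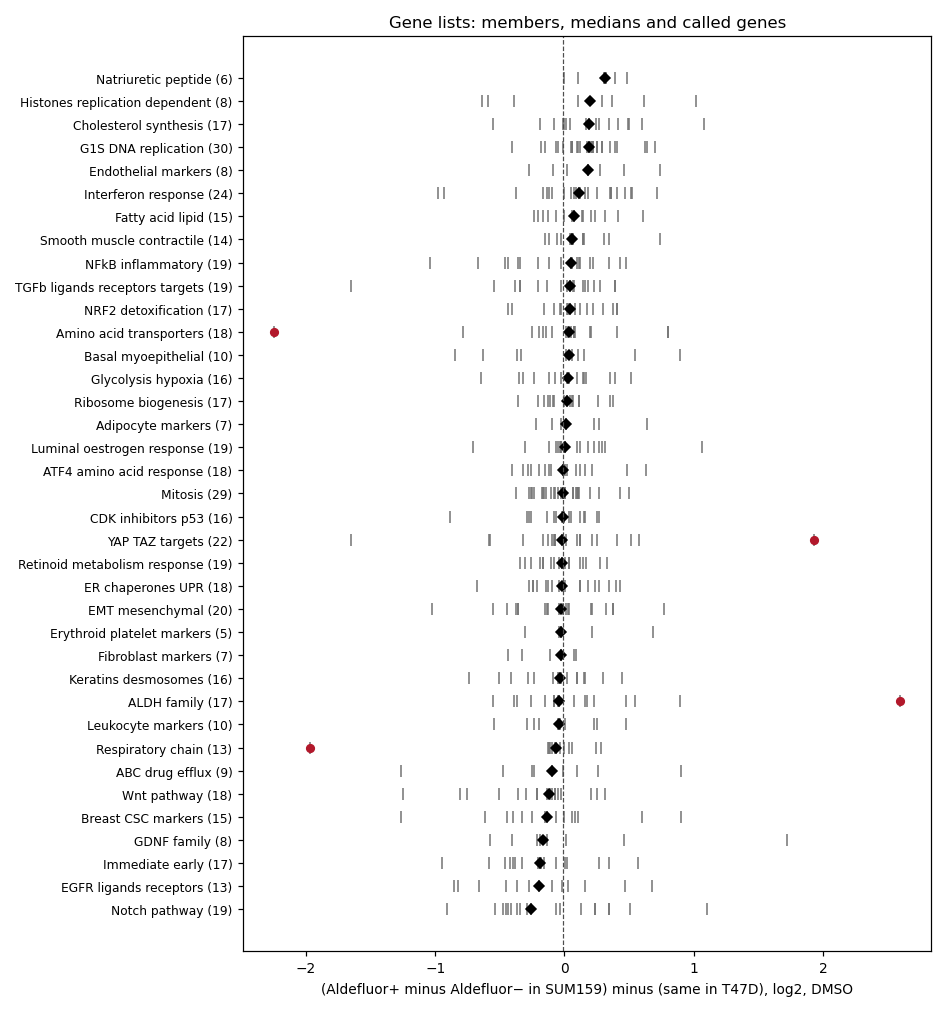
Line difference with DMSO (x axis, log2) of each measured member (grey ticks) of the pathway and cell type lists (y axis, with the number measured); diamonds are list medians, red points are called genes, and the dashed line is the median of all genes at -0.01. Called genes occur in 4 lists (ALDH1A1, ANKRD1, SLC6A14 and COX7B2), and list medians lie close to that of all genes beside the spread of their members.

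The same quantity was measured in the 12 ID8 arrays, which share no array with the DMSO comparison but share its pooled spread. They came from the same experiments 2 to 7 and were centred together with the DMSO arrays, so they are not an independent set. There 53 genes were called (0.237%), and 18 to 25 when any 1 of the experiments was left out. Of the 15 genes called with DMSO, 13 had the same sign with ID8, against 52.0% of all genes, and 6 were also called: ALDH1A1, SLC6A14, SNX10, COX7B2, NTN4 and ABCA12. ALDH1A1 had 3.05 ± 0.242 with ID8 (adjusted p = 2.34e-05), SLC6A14 had -2.63 ± 0.271, and ABCA12 had 2.00 ± 0.181. ANKRD1 and THBS1 had the opposite sign with ID8, at -0.78 ± 0.264 (adjusted p = 0.336) and -0.04 ± 0.206 (adjusted p = 0.979). ANKRD1 in SUM159 read 4.03, 4.36 and 4.62 in Aldefluor+ cells with ID8 and 4.64, 4.92 and 4.79 in Aldefluor- cells (log2). With ID8 the SUM159 fractions of ANKRD1 were thus in the reverse order. The change in its line difference from ID8 to DMSO was 2.72 ± 0.373 (adjusted p = 0.0422), the only such call (0.00447% of genes). That call was absent when the narrow array or any of the experiments 2 to 7 was left out (0 genes each time, with 1366 to 1788 genes at an unadjusted p under 0.05). For THBS1 the change was 1.77 ± 0.291 (adjusted p = 0.121). For ANXA1 and FGG, which had line differences of -0.12 and -0.01 with ID8, it was -1.10 ± 0.215 and -1.24 ± 0.269 (adjusted p = 0.267 and 0.354).

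**Figure D4:**
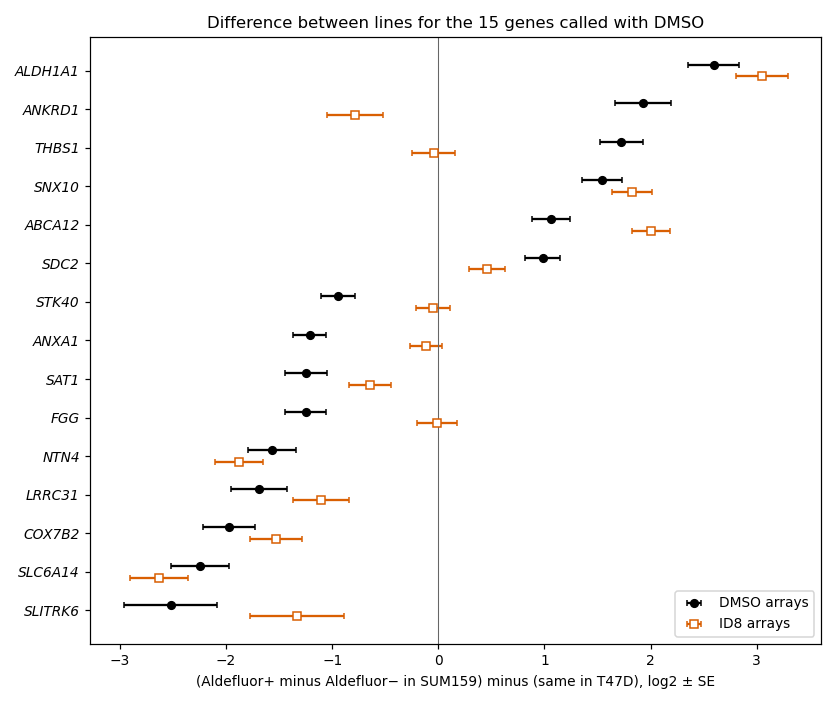
Line difference in log2 with its SE (x axis) for the 15 genes called with DMSO (y axis), in DMSO arrays (black circles) and ID8 arrays (orange squares). ALDH1A1, SNX10 and ABCA12 stay to the right and SLC6A14, COX7B2 and NTN4 to the left under both, while ANKRD1 lies at 1.93 with DMSO and -0.78 with ID8.

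Most markers of other cell types were low in these sorted lines, as were 49% of all genes by the same limit of 2. The mean signal was below 2 for 7 of 7 fibroblast, 9 of 10 leukocyte, 7 of 7 adipocyte, 5 of 5 erythroid or platelet and 6 of 8 endothelial markers. The summed log2 signal of the 8 endothelial markers was 13.0 to 13.4 in SUM159 Aldefluor+ cells and 10.7 to 11.7 in SUM159 Aldefluor- cells, and it was 12.3 to 12.9 and 11.8 to 12.5 in T47D. The 10 leukocyte markers summed to 13.7 to 15.0 and 13.1 to 13.7 in SUM159 and to 14.5 to 15.2 and 12.4 to 14.1 in T47D. The defining markers PTPRC of leukocytes and CDH5 of endothelium had means of 0.91 and 0.95. In the endothelial list, 6 of 8 line differences were above 0, with a median of 0.19 and a range of -0.27 to 0.74. None of these markers was called, and their part in the results was not tested. RNA per collected cell was higher in Aldefluor+ than in Aldefluor- cells in both lines, 12.9 ± 0.173 against 10.6 ± 1.31 pg in SUM159 and 19.3 ± 1.05 against 13.8 ± 3.03 pg in T47D (SD, n = 3). The log2 ratio was 0.30 ± 0.17 in SUM159 and 0.51 ± 0.27 in T47D (SD), a difference of -0.21 with an exact two-sided permutation p of 0.4, where 0.1 is the smallest p that 3 against 3 allows.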

How the data were processed

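RNA of the sorted cells was amplified and measured on an Affymetrix array plate. The deposited values are log2 signals from RMA, per the submitters' processing notes, and per the labels' design text the authors adjusted them for experiment and processing with ComBat. For ComBat's batches and covariates, and for versions, the entry is: not given in the sources used here. Experiment means had been nearly removed: their deviations from the mean of the line had an SD of no more than 0.0226 over genes, beside a median SD of 0.204 between arrays of a group.

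Of 53617 probe sets, 23871 had 1 gene symbol, 1842 several and 27904 none, and those with several or none entered only an alternative. Symbols of 22569 were updated by gene number to RefSeq on GRCh38.p14. For 632 genes with several probe sets the one with the highest mean was used, leaving 22395 genes, of which 49% had a mean below 2. No 2 arrays held identical values.

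limma 3.58.1 (R 4.3.3) was fitted to the 24 arrays, with a mean for each of 8 groups and a block for each experiment within its line, and p-values were adjusted by Benjamini-Hochberg over the 22395 genes. Errors marked SE, and those after a log2 difference, come from this fit. The numbers pair the fractions because the labels state that each marks a separate experiment. Deviations of DMSO arrays correlated at -0.355 to -0.307 for 6 pairs of 1 experiment and at 0.122 to 0.208 for 12 pairs of different experiments and fractions of 1 line, which follows from the removed means.

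The comparison, its members and the gene lists were chosen with earlier results of these data known. Named genes were all called genes, the next by p-value among genes with a mean of at least 2 until 10 stood on each side, the 8 largest called differences within each line, the 3 smallest p-values in each list described, and fixed aldehyde dehydrogenases and line markers. List members with no measured probe set were not analysed here. RNA per cell is the labels' RNA amount divided by their cell number. Alternatives were the block, the arrays in the fit, normalization, array spread, a filter on low means, the probe set rule, eBayes settings, array weights and leave-outs.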

Additional observations from a re-analysis of the deposited data

Results flagged for a closer look

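The line difference itself, an interaction of line and fraction, was past the threshold with DMSO for 15 genes, and each is listed for that reason. On the log2 scale it was 2.59 for ALDH1A1, 1.93 for ANKRD1, 1.73 for THBS1, 1.54 for SNX10, 1.06 for ABCA12 and 0.98 for SDC2. It was -2.52 for SLITRK6, -2.24 for SLC6A14, -1.97 for COX7B2, -1.69 for LRRC31, -1.57 for NTN4, -1.25 for FGG, -1.25 for SAT1, -1.21 for ANXA1 and -0.95 for STK40. With ID8 it was past the threshold for 6 of these genes, at 3.05 for ALDH1A1, 2.00 for ABCA12, 1.82 for SNX10, -1.53 for COX7B2, -1.87 for NTN4 and -2.63 for SLC6A14. For ANKRD1 the line difference also differed between treatments, by 2.72 (DMSO minus ID8). The test for single outlying values needs groups of 4 or more arrays and was not applied to these groups of 3.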

How the results depend on the processing

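The 15 DMSO line differences became 115 genes with no replicate block (all 15 among them), 0 in the fit to the 12 DMSO arrays and 23 among the 11418 genes with a mean of at least 2 (14 of the 15), and 6 to 10 when experiments or the narrow array were left out. The same settings gave 88, 2 and 7 for the SUM159 fractions (5 genes in the report), with 11 under eBayes with trend and robust and 2 to 4 in the leave-outs. For the T47D fractions (34) they gave 242, 5 and 70, with 66 under trend and robust and 5 to 44 in the leave-outs. For the ID8 line difference (53), no block gave 289, the filter on means 98, trend and robust 96 and the leave-outs 18 to 55. For the change between treatments (1), no block gave 21, the filter 3, trend and robust 6, array weights 2, every probe set 0 (3468 genes at an unadjusted p under 0.05) and the leave-outs 0. The fit without the replicate block counts degrees of freedom that the removal of experiment means had used, and the fit to 12 arrays has fewer arrays to estimate the spread. The other settings gave DMSO counts of 11 to 19, of which 11 of the 15 were kept with scaled arrays, 9 with every probe set, 13 with trend and robust eBayes, 13 with array weights and 15 with quantile normalization or the mean of probe sets. Of 1146 values for 72 genes under 16 alternatives, 3 reversed, all of ALDH1A3, whose uncalled line difference was 0.06 without the narrow array, 0.07 without experiment 4 and 0.24 without experiment 5, in leave-outs of -0.26 to 0.24. The difference in RNA per cell kept its sign, at -0.33 to -0.06 when experiments were left out. Signal below 2 and 3 arrays per group limit what small differences can show.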
